A study of Homo sapiens with 2 samples.

Results

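The aldo-keto reductases described here are 10 human genes, AKR1A1, AKR1B1, AKR1B10, AKR1B15, AKR1C1, AKR1C2, AKR1C3, AKR1C4, AKR7A2 and AKR7A3, chosen by name out of the 30843 gene symbols in the transcript tables. They take up 20 of the 65535 listed transcripts. The study compared MTAC-P, a line derived from PC9 that resists EGFR tyrosine kinase inhibitors, with PC9 itself, a human lung adenocarcinoma line with an EGFR deletion that keeps the receptor active. Each line had 1 RNA-seq library, so no value below has a replicate check, a standard error or a p-value. Per the labels' protocols, the medium of both lines was DMEM with serum, and they give neither a drug treatment at harvest nor a clonal origin of MTAC-P.

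Aldo-keto reductases are small soluble enzymes that use NADPH to reduce aldehydes and ketones to alcohols. Their substrates include sugars, retinal, lipid peroxidation products, steroids, prostaglandins and the carbonyl groups of drugs such as anthracyclines. Several members, AKR1B10 and the AKR1C genes among them, are known targets of NRF2, the transcription factor of the antioxidant response, and are highly expressed in many lung cancers.

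Values are FPKM (sequenced fragments per transcript, corrected for its length and for the size of the library), summed over the listed transcripts of a gene, and the log2 ratio is log2((MTAC-P + 1)/(PC9 + 1)). The 10 genes held 0.268% of the summed FPKM in MTAC-P and 0.243% in PC9, at 1834 and 1687 FPKM. The totals were close, but their makeup differed. In MTAC-P, AKR1C2 alone made up 58.1% of the family's FPKM and AKR1B10 9.73%, whereas in PC9 AKR1C2 made up 31.2% and AKR1B10 36.8%. AKR1B10 ranked 430th among all symbols in MTAC-P and 132nd in PC9, and AKR1C2 ranked 89th in MTAC-P and 154th in PC9. Of 9 lung epithelial markers 8 passed a mean of 1 FPKM, led by the keratins KRT18 (2720 FPKM in MTAC-P and 2329 in PC9) and KRT19 (430 and 549). The lung lineage factor NKX2-1 was listed at 0 in MTAC-P and stood at 0.0787 in PC9. The 6 leukocyte markers summed to 29.8 FPKM in MTAC-P and 24.1 in PC9, of which CD68, a lysosomal membrane protein, made up 28.8 and 22.2, while PTPRC, which defines leukocytes, stood at 0.0460 and 0.0910. The 6 fibroblast and endothelial markers in the tables summed to 6.25 FPKM in MTAC-P and 5.32 in PC9, mostly CDH5 (4.13 and 3.34) and COL1A1 (1.33 and 1.20). Mitochondrially encoded genes took 20.3% of the summed FPKM in MTAC-P and 23.5% in PC9.

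**Figure D1:**
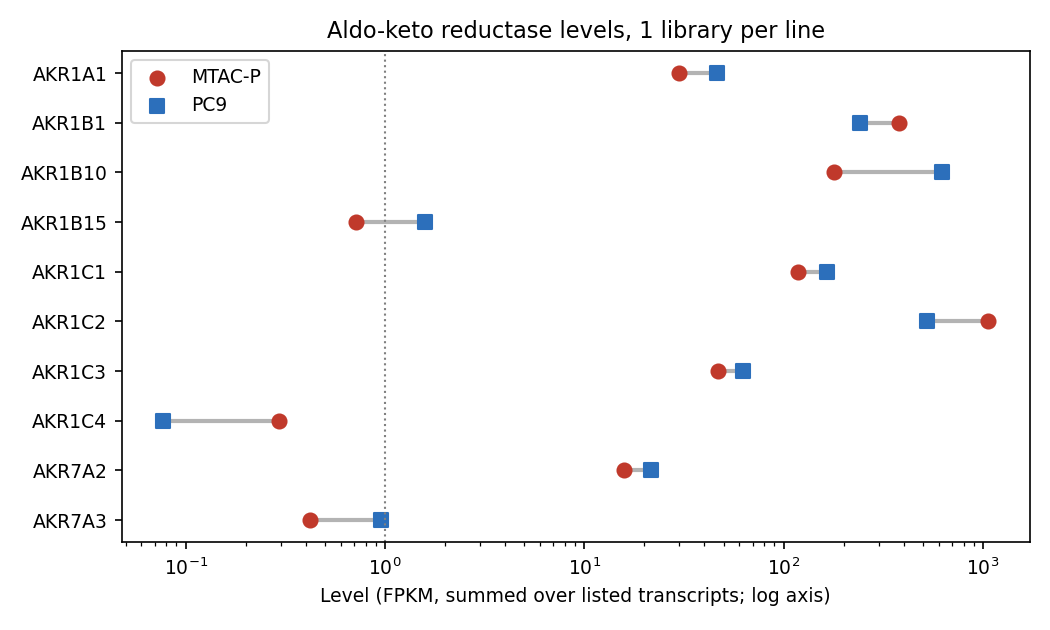
Level of each aldo-keto reductase in FPKM on a log axis, summed over listed transcripts, with MTAC-P as circles and PC9 as squares (1 library each) and a dotted line at 1 FPKM. AKR1C2, AKR1B1 and AKR1C4 lie to the right in MTAC-P, and the other 7 genes lie to the right in PC9, AKR1B10 by the widest gap of those above 1 FPKM.

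The AKR1B and AKR1C genes each form a cluster of copies, and how alike the copies are decides which values can be told apart. AKR1B1, AKR1B10 and AKR1B15 lie within 138 kb on chromosome 7 (134442350 to 134579875, GRCh38), and AKR1C1 to AKR1C4 within 256 kb on chromosome 10 (4963253 to 5218949). The coding sequences of AKR1C1 and AKR1C2, 972 bases each, differed at 19 bases (98.0% identity). The stretch of 90 bases below, which is coding bases 85 to 174 and lies in 1 exon, holds 10 of those 19 differences. Parts outside the coding sequence were not ranked in this way. It covers chr10:5001592-5001681 on the minus strand for AKR1C2, chr10:4965914-4966003 on the plus strand for AKR1C1 and chr10:5096410-5096499 on the plus strand for AKR1C3. Capitals mark bases that differ from AKR1C2.
AKR1C2: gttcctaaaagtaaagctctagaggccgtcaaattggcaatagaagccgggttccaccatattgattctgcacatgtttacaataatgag
AKR1C1: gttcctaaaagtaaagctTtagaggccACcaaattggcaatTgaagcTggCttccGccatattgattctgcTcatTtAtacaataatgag
AKR1C3: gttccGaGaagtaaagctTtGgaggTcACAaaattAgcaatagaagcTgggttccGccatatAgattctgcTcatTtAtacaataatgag

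Further along, coding bases 681 to 782 were the same in AKR1C2, AKR1C1 and AKR1C3, so that a read of up to 102 bases from within this run cannot by itself be assigned to any of them. The run covers chr10:4995383-4995484 on the minus strand for AKR1C2, chr10:4972584-4972685 on the plus strand for AKR1C1 and chr10:5102485-5102586 on the plus strand for AKR1C3. It is shown once, with no capitals because no base differs.
AKR1C2, AKR1C1 and AKR1C3: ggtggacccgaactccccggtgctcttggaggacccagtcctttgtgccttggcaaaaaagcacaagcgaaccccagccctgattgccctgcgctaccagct

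AKR1B10 and AKR1B15 were less alike. Over the 951 coding bases that align they differed at 62 (93.5% identity), and AKR1B1 differed from AKR1B10 at 235 of 951 (75.3% identity). In the window below, coding bases 67 to 156 of AKR1B10, AKR1B15 differed at 8 bases and AKR1B1 at 21. The window covers chr7:134530643-134530732 for AKR1B10 and chr7:134568158-134568247 for AKR1B15, both on the plus strand, and chr7:134451664-134451753 on the minus strand for AKR1B1. Capitals mark bases that differ from AKR1B10.
AKR1B10: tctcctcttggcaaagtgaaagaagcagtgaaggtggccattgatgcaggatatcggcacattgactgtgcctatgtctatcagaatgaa
AKR1B15: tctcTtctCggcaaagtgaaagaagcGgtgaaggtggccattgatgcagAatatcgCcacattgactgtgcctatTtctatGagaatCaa
AKR1B1: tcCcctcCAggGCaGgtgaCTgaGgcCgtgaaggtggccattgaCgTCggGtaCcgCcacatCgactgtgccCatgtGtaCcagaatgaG

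These sequences are from GENCODE release 29 transcripts. To count how much a read could share, every stretch of 50 bases in a listed transcript was looked up in all GENCODE transcripts on both strands. Of the AKR1C2 transcripts with a sequence, ENST00000380753 had 50.8% of its stretches, and ENST00000421196 had 55.9%, in AKR1C1 transcripts as well. AKR1C1 transcript ENST00000380872 shared 28.3% with AKR1C2. AKR1B10 shared 11.6% with AKR1B15 and none with AKR1B1, and AKR1A1 shared none with any other gene. With pseudogenes and all other genes counted, the share was 17.7% for AKR1B10 and 4.78% for the full-length AKR1B1 transcript ENST00000285930. The sources used here give no read length. With stretches of 36 bases the share of AKR1C2 transcript ENST00000421196 found in AKR1C1 was 64.1%, and with 75 bases it was 42.6%.

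**Figure D2:**
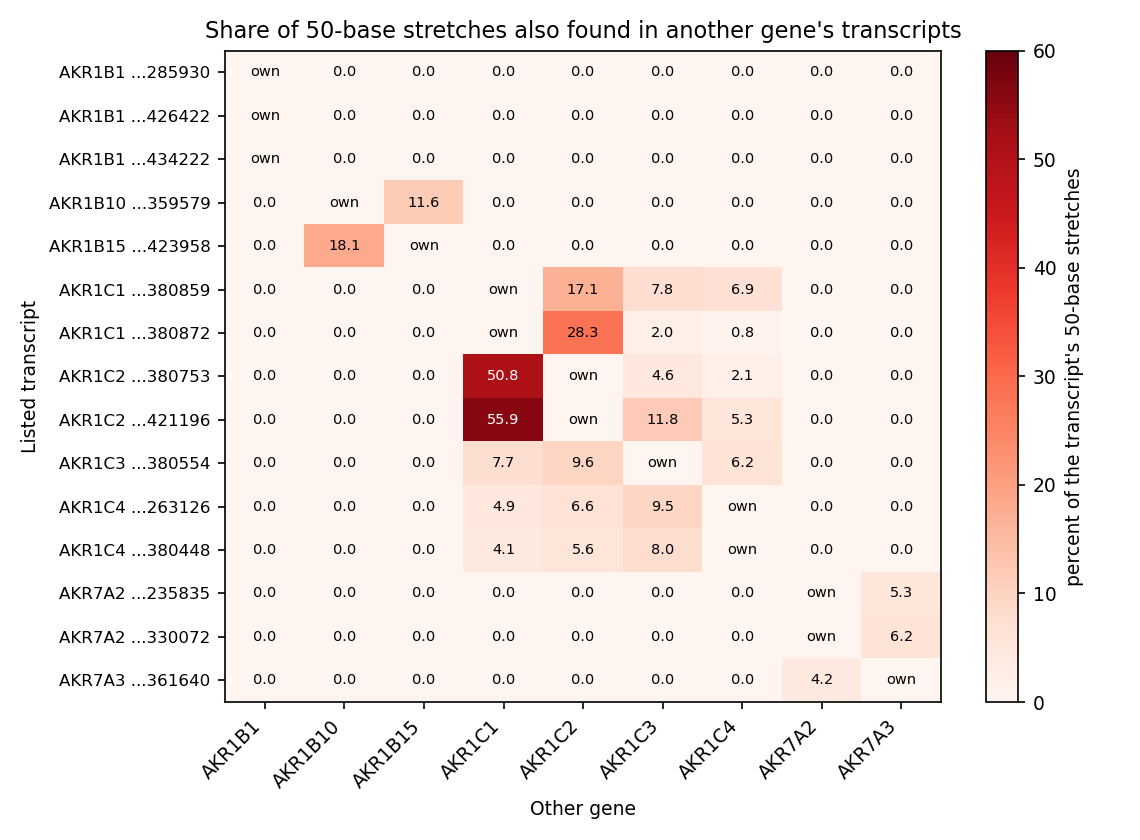
Percent of the 50-base stretches of each listed AKR1B, AKR1C and AKR7A transcript (rows, GENCODE 29 sequences) that also occur in transcripts of another member (columns), with darker red for more and a gene's own column left out. The AKR1C2 transcripts reach 50.8% and 55.9% in AKR1C1, while AKR1B10 reaches 11.6% in AKR1B15 and the AKR1B1 rows are 0 throughout.

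A gene was compared where its mean over the libraries reached 1 FPKM, which 11435 genes did. Of the 10 aldo-keto reductases 8 passed this filter, since AKR1C4 and AKR7A3 did not reach it. On the log2 ratio scale AKR1C2 was higher in MTAC-P by 2-fold or more, AKR1B10 was lower by 2-fold or more, and the other 6 were within 2-fold. Over all genes compared, 3.48% were higher by 2-fold or more and 4.29% lower, together 7.77%. With only 8 genes compared, the 2 past 2-fold describe those genes and not the family. The median log2 ratio of the 8 genes was -0.45 and that of all genes compared -0.02, with 2 of the 8 above 0. AKR1B15 passed the filter only through PC9, where it was higher. At a mean of at least 5 FPKM, which drops AKR1B15, the members' median was -0.42. At a mean of at least 100 FPKM, a level chosen after the values were seen, differences of this size were rarer. There, 1.26% of 795 genes were higher by 2-fold or more and 1.38% lower, together 2.64%, and these 795 include AKR1B1, AKR1B10, AKR1C1 and AKR1C2.

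**Figure D3:**
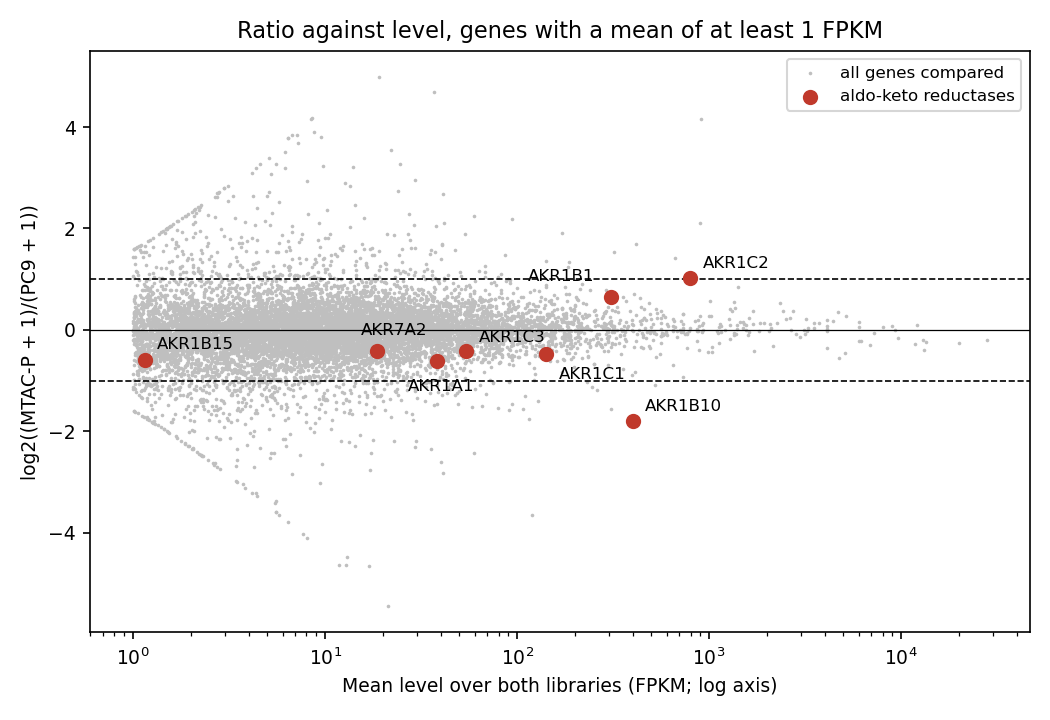
Log2 ratio of MTAC-P over PC9 against mean level in FPKM (log axis) for the 11435 genes compared (grey) and the 8 aldo-keto reductases among them (red), with dashed lines at 2-fold. AKR1B10 at -1.79 lies below the lower line at a level where few genes do, AKR1C2 at 1.02 sits on the upper line, and the other 6 lie between the lines.

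AKR1B10, which reduces retinal and lipid-derived aldehydes and is known as a marker of smoking-related lung cancer, stood at 178 FPKM in MTAC-P and 621 in PC9. MTAC-P thus had 0.287 times the level of PC9, a log2 ratio of -1.79, and 0.944% of the genes compared had a lower one. All of its value came from 1 transcript, ENST00000359579 (chromosome 7, 134527592 to 134541408, 10 exons, 1590 bases), which is the only coding transcript GENCODE gives the gene. AKR1B15, the neighbouring copy, stood at 0.718 FPKM in MTAC-P and 1.58 in PC9 (log2 ratio -0.59). Added together, the pair stood at 179 and 623 FPKM, and the log2 ratio stayed at -1.79. A small share of AKR1B10 reads counted as AKR1B15 would be enough for the whole AKR1B15 value, and whether this happened was not tested.

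AKR1B1 encodes aldose reductase, the enzyme that turns glucose into sorbitol at the start of the polyol pathway. Its summed level was 378 FPKM in MTAC-P and 242 in PC9 (log2 ratio 0.64). The full-length coding transcript ENST00000285930 was almost the same in both, at 139.8 FPKM in MTAC-P and 138.8 in PC9 (log2 ratio 0.01). The gene's difference lay in ENST00000426422, at 238 FPKM in MTAC-P and 102 in PC9 (log2 ratio 1.21). GENCODE annotates this short transcript of 521 bases and 4 exons as a target of nonsense-mediated decay, the process that degrades messages with an early stop. Of its 472 stretches of 50 bases, 371 (78.6%) are also in the full-length transcript, so most of its reads could belong to either. The remaining transcript, ENST00000434222, stood at 0.253 and 1.07 FPKM. AKR1B10 had 0.472 times the level of AKR1B1 in MTAC-P and 2.57 times its level in PC9.

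AKR1C2 encodes a hydroxysteroid dehydrogenase that inactivates dihydrotestosterone and also binds bile acids. It had the highest level of the family in MTAC-P, 1066 FPKM, against 526 FPKM in PC9, where AKR1B10 was higher. Its raw quotient was 2.03 and its log2 ratio 1.02, so it passed 2-fold narrowly. Scaling to equal upper quartiles (0.98), scaling without mitochondrial genes (0.98) or using only its highest transcript (0.98) placed it just below. All 3 listed transcripts were higher in MTAC-P. ENST00000407674 stood at 840 FPKM in MTAC-P and 427 in PC9, ENST00000421196 at 149 and 42.8, and ENST00000380753 at 77.7 and 56.8. The dominant ENST00000407674 carried 78.8% of the gene's FPKM in MTAC-P and 81.1% in PC9. It is not among the transcripts of GENCODE 29, so its sequence and its overlap with AKR1C1 were not analysed here. The other 2 transcripts alone gave a log2 ratio of 1.18 for the gene.

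AKR1C1, whose enzyme inactivates progesterone, stood at 118 FPKM in MTAC-P and 165 in PC9 (log2 ratio -0.48). All 3 of its transcripts were lower in MTAC-P, at 59.9 and 90.4 FPKM for ENST00000434459, which is not in GENCODE 29, at 40.9 and 46.1 for ENST00000380859 and at 17.0 and 28.3 for ENST00000380872. AKR1C2 was thus 9.05 times as high as AKR1C1 in MTAC-P and 3.19 times in PC9. Because the genes share so much sequence, a shift of reads between them would lower 1 while raising the other, and whether the software divided them the same way in both libraries was not tested. Their sum would not depend on that division if the transcripts were equally long. Those with a sequence here ran from 858 bases (ENST00000380859) to 6705 (ENST00000380872), so the sum could still shift. The sum was 1184 FPKM in MTAC-P and 691 in PC9, a log2 ratio of 0.78, below 2-fold.

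AKR1C3 encodes an enzyme that makes testosterone from androstenedione and reduces prostaglandin D. It had 1 listed transcript, ENST00000380554 (chromosome 10, 5093793 to 5107686), at 46.7 FPKM in MTAC-P and 62.3 in PC9 (log2 ratio -0.41). GENCODE lists 4 coding transcripts for AKR1C3, so part of its expression was not analysed here, and quotients with AKR1C3 are limited by this. ENST00000380554 shared 9.61% of its 50-base stretches with AKR1C2 and 7.68% with AKR1C1, less than those share with each other. The quotient of AKR1C1 over AKR1C3 was 2.52 in MTAC-P and 2.65 in PC9, while that of AKR1C2 over AKR1C3 was 22.8 and 8.45. AKR1C4, known as the liver form, had the lowest level of the 10 genes in both libraries, at 0.294 FPKM in MTAC-P and 0.0771 in PC9. Of the 4 hepatocyte markers, ALB, APOA1 and TTR were listed at 0 in both libraries, and SERPINA1 stood at 0.214 and 0.291. The 50-base stretches of AKR1C4 occurred in AKR1C3 for up to 9.54%. A level as low as that of AKR1C4 could come from reads of the abundant copies, which was not tested. All 4 AKR1C genes together stood at 1231 FPKM in MTAC-P and 753 in PC9 (log2 ratio 0.71). With only transcripts that GENCODE 29 holds, their log2 ratio was 0.49.

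**Figure D4:**
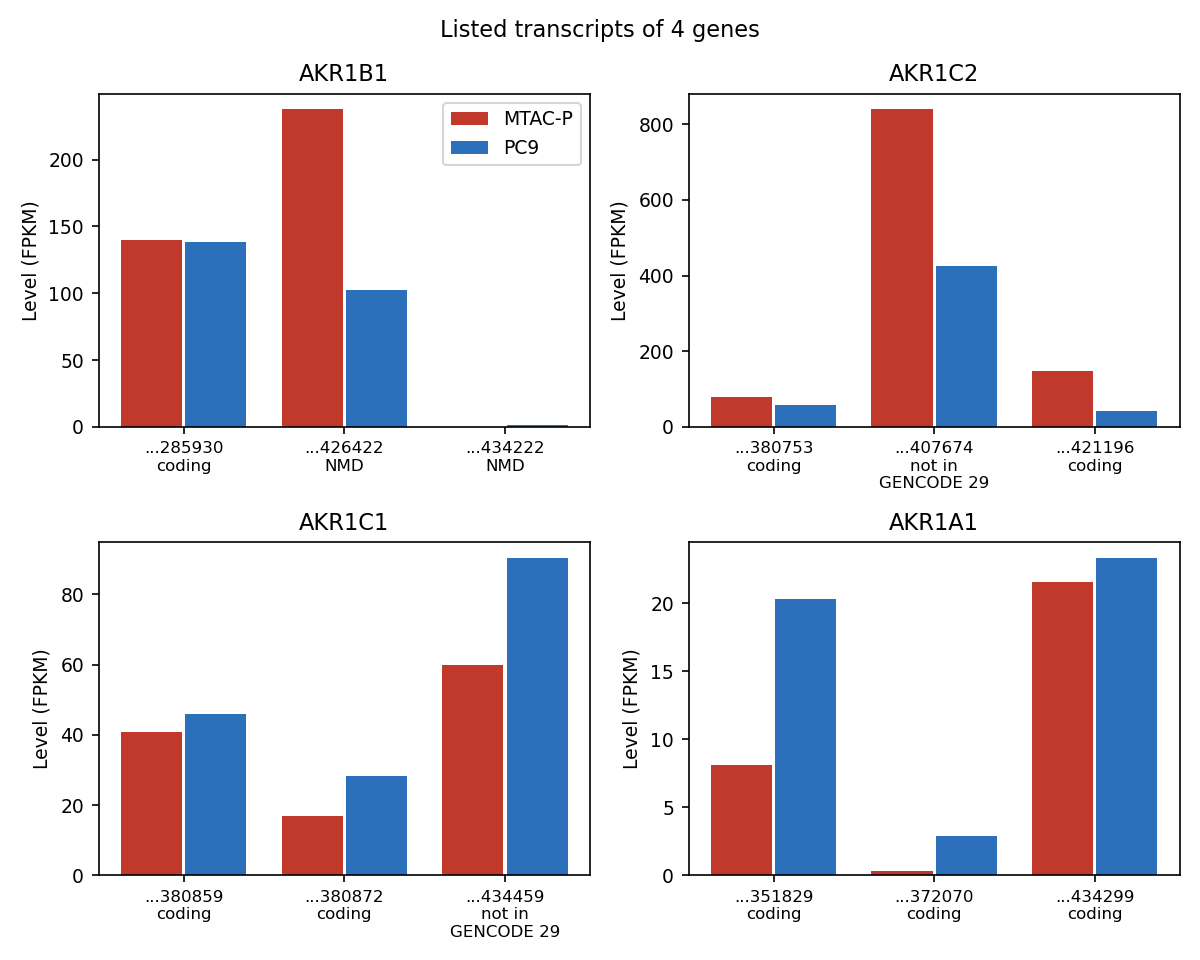
Level in FPKM of each listed transcript of AKR1B1, AKR1C2, AKR1C1 and AKR1A1 in MTAC-P (red, left) and PC9 (blue, right), labelled by the end of the transcript ID and its GENCODE 29 type (NMD, nonsense-mediated decay). AKR1B1 differs in its short NMD transcript (238 and 102) and not in the coding one (139.8 and 138.8). AKR1C2 is higher and AKR1C1 lower in MTAC-P in all 3 of their transcripts, and AKR1A1 differs mainly in ENST00000351829. Transcripts of AKR1B1 and of AKR1A1 share sequence, and how shared reads were divided among them was not tested.

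AKR1A1, the general aldehyde reductase, lies away from the clusters on chromosome 1 (45550543 to 45570049). It stood at 29.9 FPKM in MTAC-P and 46.5 in PC9 (log2 ratio -0.62). Here too the transcripts differed among themselves. The coding transcript ENST00000351829 stood at 8.08 FPKM in MTAC-P and 20.3 in PC9 (log2 ratio -1.23), and ENST00000372070 at 0.292 and 2.88 (-1.59). The shorter ENST00000434299 was close in both, at 21.5 and 23.3 (-0.11). Of the 50-base stretches of ENST00000351829, 96.0% are also in ENST00000372070. Of those of ENST00000434299, 94.1% are in ENST00000372070 and 56.1% in ENST00000351829. Many reads could therefore belong to more than 1 of these transcripts, and how they were divided was not tested. GENCODE lists 6 coding transcripts for the gene, of which these 3 are in the tables, so part of the gene's expression was not analysed here.

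AKR7A2, which reduces succinic semialdehyde and the dialdehyde form of aflatoxin, stood at 15.8 FPKM in MTAC-P and 21.6 in PC9 (log2 ratio -0.42). Its main transcript ENST00000235835 stood at 12.6 and 15.2 FPKM and ENST00000330072 at 3.24 and 6.39. AKR7A3, its neighbour on chromosome 1 with 92.2% identity over 996 aligned coding bases, stood at 0.421 FPKM in MTAC-P and 0.953 in PC9. AKR7A2 shared 5.33% of the 50-base stretches of its main transcript with AKR7A3, and AKR7A3 shared 23.1% of its own with AKR7L, a related pseudogene. Over the whole family, 16 of the 20 transcripts had a mean of at least 1 FPKM, of which 2 were higher in MTAC-P by 2-fold or more and 3 lower. Among all 19406 transcripts at that level 7.76% were higher by 2-fold or more and 8.88% lower, together 16.6%.

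Promoter windows of RefSeq (GRCh38.p14, from 250 bases before to 50 bases after a gene's start) were available for 8 of the 10 genes, all but AKR1B10 and AKR1B15. The windows of AKR1C1 and AKR1C2 differed at 8 of 296 aligned positions (97.3% identity), against 74.3% identity between AKR1C2 and AKR1C3. AKR1C1 and AKR1C2, which had log2 ratios of opposite sign, are therefore alike in this window as well as in their coding sequence. The core of the antioxidant response element bound by NRF2, TGACNNNGC on either strand, was found in the window of AKR7A2 and in none of the other 7. It occurred in 13.3% of all 35116 windows. Sequence farther from the start was not searched, so a window without the core does not show that a gene lacks one. Binding of NRF2 was not tested.

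Genes beside the clusters were compared with them, taking the nearest 2 coding genes on each side that were compared. Next to AKR1B, EXOC4 had a log2 ratio of -0.21, SLC35B4 -0.25, BPGM -0.15 and the actin-binding protein gene CALD1 1.02. CALD1 stood at 12.9 FPKM in MTAC-P and 5.85 in PC9. Next to AKR1C, PITRM1 (-0.09) and NET1 (-0.11) were within 2-fold. The transcription factor gene KLF6 stood at 0.451 FPKM in MTAC-P and 2.20 in PC9 (-1.14) and CALML5 at 0.645 and 2.99 (-1.28). Next to AKR7A, PQLC2 (-0.22), EMC1 (-0.06), MRTO4 (0.04) and CAPZB (0.06) were within 2-fold. In all, 1 of the 4 neighbours of AKR1B was higher by 2-fold or more, and 2 of the 4 neighbours of AKR1C were lower by as much. Over all genes compared, 3.48% were higher by 2-fold or more and 4.29% lower. With so few neighbours, these counts describe only the genes named, and KLF6 and CALML5 had low levels in both libraries. KLF6 ends at base 3785281 of chromosome 10 and PITRM1 at 3172841, far from the start of the AKR1C cluster at 4963253.

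Other genes of carbonyl reduction and of the pathways these enzymes serve were counted from lists of known members. Of 28 NRF2 targets outside the family, all compared, 3 had a log2 ratio above 0, against 5440 of all 11435 genes compared. In MTAC-P 5 were lower by 2-fold or more, against 4.29% of all genes, and none was higher by as much. The median was -0.48. NR0B1, a nuclear receptor gene, stood at 9.18 FPKM in MTAC-P and 49.2 in PC9, and EPHX1, an epoxide hydrolase, at 44.9 and 136. HMOX1, which breaks down haem, stood at 3.34 FPKM in MTAC-P and 10.9 in PC9, and GPX2, which reduces peroxides with glutathione, at 153 and 337. Of the 8 genes that regulate NRF2 or pair with it, MAFF alone passed 2-fold, at 34.0 FPKM in MTAC-P and 15.0 in PC9. NFE2L2, which encodes NRF2, stood at 36.5 and 26.9, and KEAP1, its inhibitor, at 20.9 and 27.0. Of the 8 aldo-keto reductases compared, 6 lay below 0, as did 5995 of all 11435 genes compared. The 6 were AKR1B10, AKR1C1, AKR1C3, AKR1A1, AKR7A2 and AKR1B15, while AKR1C2 and AKR1B1 lay above 0. AKR1B15 passed the filter only through its PC9 value (0.718 FPKM in MTAC-P and 1.58 in PC9), which favours a ratio below 0. Whether NRF2 had a part in any of these values was not tested.

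A further list held reductases with another protein fold, mostly of the short-chain family with a few medium-chain enzymes. Of its 18 genes compared, DCXR (1.58 FPKM in MTAC-P and 13.2 in PC9) was lower by 2-fold or more and TSTA3 (43.4 and 10.9) higher. The median of the 18 was -0.18. Of 11 genes that supply NADPH, the cofactor of the aldo-keto reductases, IDH1 (28.5 and 68.4 FPKM) was lower by 2-fold or more and none was higher by as much. Their median was -0.17. AKR1B1 acts in the polyol pathway. Of 5 other genes compared that belong to this pathway or handle glucose and fructose, none reached 2-fold (median 0.08). SORD, the sorbitol dehydrogenase of the pathway, stood at 7.33 FPKM in MTAC-P and 7.07 in PC9. The hexokinase HK1 had a log2 ratio of 0.08, and the glucose transporter SLC2A1 one of 0.09.

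Retinoid genes, which handle the retinal that AKR1B10 reduces, had a median of -0.08, with 2 of 10 lower by 2-fold or more and none higher by as much. The retinal dehydrogenase ALDH1A1 stood at 1.16 FPKM in MTAC-P and 4.81 in PC9 and the retinoic acid receptor RARG at 10.7 and 25.4. Of 18 genes of steroid and prostaglandin metabolism, 2 were higher by 2-fold or more and 1 was lower (median -0.01). HSD3B1, which makes steroid hormone precursors, stood at 8.09 FPKM in MTAC-P and 0.708 in PC9, the cyclooxygenase PTGS2 at 3.26 and 0.587, and HSD17B14 at 0.485 and 2.09.

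In the 11 alternative settings that gave a ratio, AKR1B10 stayed lower by 2-fold or more, with log2 ratios from -1.84 to -1.77. Filters on level or on transcripts could not change its ratio. The gene is abundant and has 1 listed transcript, which is coding and in GENCODE 29. AKR1B1 changed most for an abundant member, and gave 1.21 when each gene was represented by the transcript with the highest mean over both libraries. For AKR1B1 that was the short NMD transcript, the highest in MTAC-P, whereas the full-length one was the highest in PC9.

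**Figure D5:**
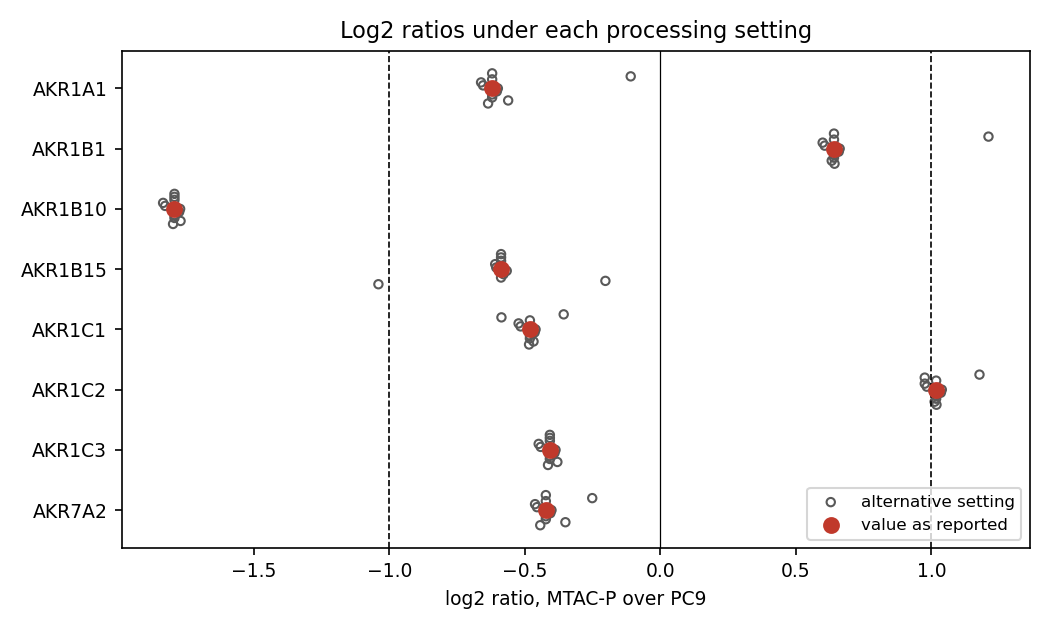
Log2 ratio of MTAC-P over PC9 for the 8 genes compared, as reported (filled red) and under each alternative processing setting that gave a value (open circles), with dashed lines at 2-fold. AKR1B10 stays left of the lower line, AKR1C2 straddles the upper line, AKR1B1 crosses it with its highest transcript only, and AKR1B15 crosses the lower one with a pseudocount of 0.1.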

How the data were processed

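RNA-seq of MTAC-P and PC9 was used, 1 library each. The design text mentions triplicate sequencing, but the tables hold a single value column per line. The authors deposited 1 value per transcript, taken as FPKM because the submitters' processing notes name Cufflinks. These notes also name Trim Galore, TopHat and hg38, without versions, and the tables name no unit. The tables hold no counts, so depth is unknown and no interval can be given. Each table has 65536 lines, as many as older spreadsheet programs could hold, with IDs in sorted order. Transcripts whose IDs come after the last one were not analysed here. Of the coding transcripts in GENCODE 29, 2 of 3 were listed for AKR1C1, 2 of 4 for AKR1C2, 1 of 2 for AKR1B15 and 2 of 3 for AKR7A2.

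Values were summed per symbol. Those with a mean of 1 FPKM or more were compared as log2((MTAC-P + 1)/(PC9 + 1)), and 2-fold on that scale was counted; the pseudocount understates low genes. With 1 library per line there is no test. Sequences and positions came from GENCODE 29 (GRCh38) and RefSeq windows, alignments from Biopython 1.88, tables from pandas 2.3.3. The comparison step was tested on simulated data. All 10 members are described; of each list, up to 4 genes at 2-fold are named or, with none, the 2 most abundant. Genes outside that rule are PTPRC, NKX2-1, NAPSA, SFTPB, the hepatocyte markers, NFE2L2, KEAP1, SORD, the neighbours and the other superfamily symbols except KCNAB2. All of these were picked after values were seen. The members and lists were chosen with earlier results of these data known.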

Additional observations from a re-analysis of the deposited data

How the results depend on the processing

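Of 87 log2 ratios of single members under alternatives, 82 kept their side of 2-fold, 3 (AKR1C2) dropped below it, 2 passed it and none reversed. The 2 were AKR1B1 with its highest transcript only (1.21) and AKR1B15 with a pseudocount of 0.1 (-1.04). Filters on level only drop genes, and all 20 member transcripts were deposited as coding. Such settings could therefore not move a ratio, and they count among the 82. The number of members at least 2-fold lower, 1 as reported, was 2 with a pseudocount of 0.1, 3 at 1.5-fold and 0 at 4-fold; the number higher, also 1, was 0 with equal upper quartiles, 0 with a common sum without mitochondrial genes, 2 at 1.5-fold and 0 at 4-fold. With the highest transcript only the number higher stayed 1, but the gene was AKR1B1 in place of AKR1C2. Of all 11435 genes compared, 1282 were lower and 1025 higher at 1.5-fold, and 85 were lower and 89 higher at 4-fold. With a pseudocount of 0.1, 775 were at least 2-fold lower and 569 higher. With equal upper quartiles 369 were higher, and with a common sum without mitochondrial genes 363 of 11434 were. The members' median was -0.33 with the highest transcript only. The family's summed log2 ratio of 0.12 was -0.32 with only transcripts that GENCODE 29 holds, a setting chosen after seeing the data, which drops the main AKR1C2 transcript.

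Counts of listed genes at 2-fold also moved. At 4-fold they were 0 for other superfamily genes, NRF2 regulators, NADPH supply and retinoid genes and 1 for the mostly short-chain reductases, NRF2 targets and steroid genes. At 1.5-fold they were 9 for NRF2 targets, 2 for NADPH supply, 1 for the polyol and sugar genes and 8 for steroid genes. With a pseudocount of 5 they were 3 for NRF2 targets, 0 for other superfamily genes, NRF2 regulators and retinoid genes, and 1 for steroid genes; with one of 0.1, 5 for steroid genes. At a mean of at least 5 they were 1 for retinoid and 0 for steroid genes. With the highest transcript only they were 0 for other superfamily genes and NRF2 regulators and 5 for steroid genes. The numbers over all genes moved as well. With a pseudocount of 5, 140 of 11435 genes were higher and 144 lower. At a mean of at least 5, 206 of 7870 were higher and 225 lower, and with the highest transcript only 491 of 11092 were higher and 588 lower. The cause was not tested. No paired analysis was possible because there is a single library per line, so none could be left out either. Depth is unknown, which limits AKR1B15, AKR1C4 and AKR7A3 in particular.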

Other observations

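Of the other symbols of the aldo-keto reductase superfamily, KCNAB2 and KCNAB3 reached a mean of 1 FPKM. Both encode potassium channel beta subunits, which share the enzyme fold, as does KCNAB1. KCNAB2 stood at 7.89 FPKM in MTAC-P and 3.27 in PC9 (log2 ratio 1.06), KCNAB3 at 1.46 and 1.19, and KCNAB1 at 0.238 and 0.00273. The bile acid synthesis gene AKR1D1 stood at 0.0563 FPKM in MTAC-P and 0.0379 in PC9, AKR1E2 at 0.0193 and 0.0183, and AKR7L at 0.639 and 0.982. AKR1CL1 was listed at 0 in both libraries. Of the 4 AKR1B1 pseudogenes listed, AKR1B1P1 was listed at 0 in MTAC-P and stood at 0.111 in PC9, and AKR1B1P4, AKR1B1P6 and AKR1B1P8 were listed at 0 in both.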
